A study of Rattus norvegicus with 12 samples.

Results

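Collagens are the rope-like proteins of the extracellular matrix, and their genes were followed here through the brains of rats with a stroke of the hemisphere or of the pons. The count table holds 37209 gene symbols, and 44 of them name a collagen chain, taken as every symbol of the form Col, type number, letter a and chain number. Of the 44, 39 had at least 10 counts in 3 or more of the 12 libraries, and these 39 were also the ones with enough counts to be tested. By type the family splits into 11 fibrillar genes, 6 genes of the basement membrane collagen type IV and 27 genes of other types. The 27 are 6 genes of type VI, 9 fibril-associated genes (FACIT), 3 short-chain network genes, 2 multiplexins, 4 transmembrane genes and 3 others.

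Each collagen molecule is a helix of alpha chains, every chain is made from its own gene, and partner chains such as those of Col4a1 and Col4a2 wind into one molecule. Fibrillar types form the cables of connective tissue, type IV forms the sheet-like network of basement membranes, and FACIT types sit on fibrils and link them to other matrix. In the healthy brain collagen is scarce between the cells and lies mostly in the basement membranes of vessels and in the meninges.

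All animals were Sprague Dawley rats of postnatal day 21, and each of the 4 groups has 3 libraries. In MCAO the middle cerebral artery, which feeds much of the hemisphere, was occluded. In pontine infarction the stroke was set in the pons, a part of the brainstem. The other groups, sham LN and sham PN, were sham animals, and sham LN was set against MCAO and sham PN against pontine infarction by the first letter of the sample codes. The labels give the tissue only as brain, with neither the region taken nor the time after the stroke. They mention 3 rats for each stroke without tying each library to a rat, so the p-values measure the spread between samples. One MCAO column carries a code number that no sample title has, and it is called the unnumbered MCAO library.

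Libraries held 19805815 to 40400676 counts, of which collagens made up 0.0543% to 0.161%. Levels are CPM, counts scaled to a common library total by the TMM method, given per library or as mean ± SD of the 3 libraries, and log2 changes are given ± SE. Without transcript lengths, levels were compared between libraries and never between genes. Markers of neurons (summed level 2170.0 to 6421 CPM) and of astrocytes (1821 to 8157 CPM) were high in all 12 libraries. MCAO replicate 1 stood apart with 1129 CPM of summed choroid plexus markers, 1019 CPM of them Ttr, against 5.93 to 32.8 CPM in the other 11 libraries. MCAO replicate 2 held the least of the macrophage markers among the stroke libraries, 164 CPM against 229 to 1974 CPM in the other 5 and 38.2 to 56.1 CPM in the shams.

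The 5 collagens that were not tested were nearly absent from the table. Col10a1, the collagen of growth-plate cartilage, had 12 counts over all libraries, Col28a1 had 62 and Col6a5 had 65. Col4a5 and Col4a6, which encode the remaining type IV chains, are listed at 0 in every library. Both lie on the X chromosome, where 591 of 606 protein-coding symbols (97.5%) are listed at 0 throughout, against 1052 of 16016 autosomal ones (6.57%), so these zeros say nothing about expression.

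After MCAO, collagens moved in both directions. Of the 39 tested, 10 passed the threshold of an adjusted p of 0.05, 6 higher and 4 lower than in sham LN (edgeR quasi-likelihood test, Benjamini-Hochberg over all genes). In this comparison 18.6% of all genes tested passed, 12.5% higher and 6.07% lower, and the collagens' share was 25.6%. Col8a1, Col6a3, Col4a1, Col4a2, Col5a1 and Col16a1 rose, and Col11a2, Col9a2, Col4a3 and Col9a3 fell. The median log2 change was 0.19 over the 39 collagens and 0.00 over all genes. More RNA per cell and more cells of a type cannot be told apart in bulk tissue.

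**Figure D1:**
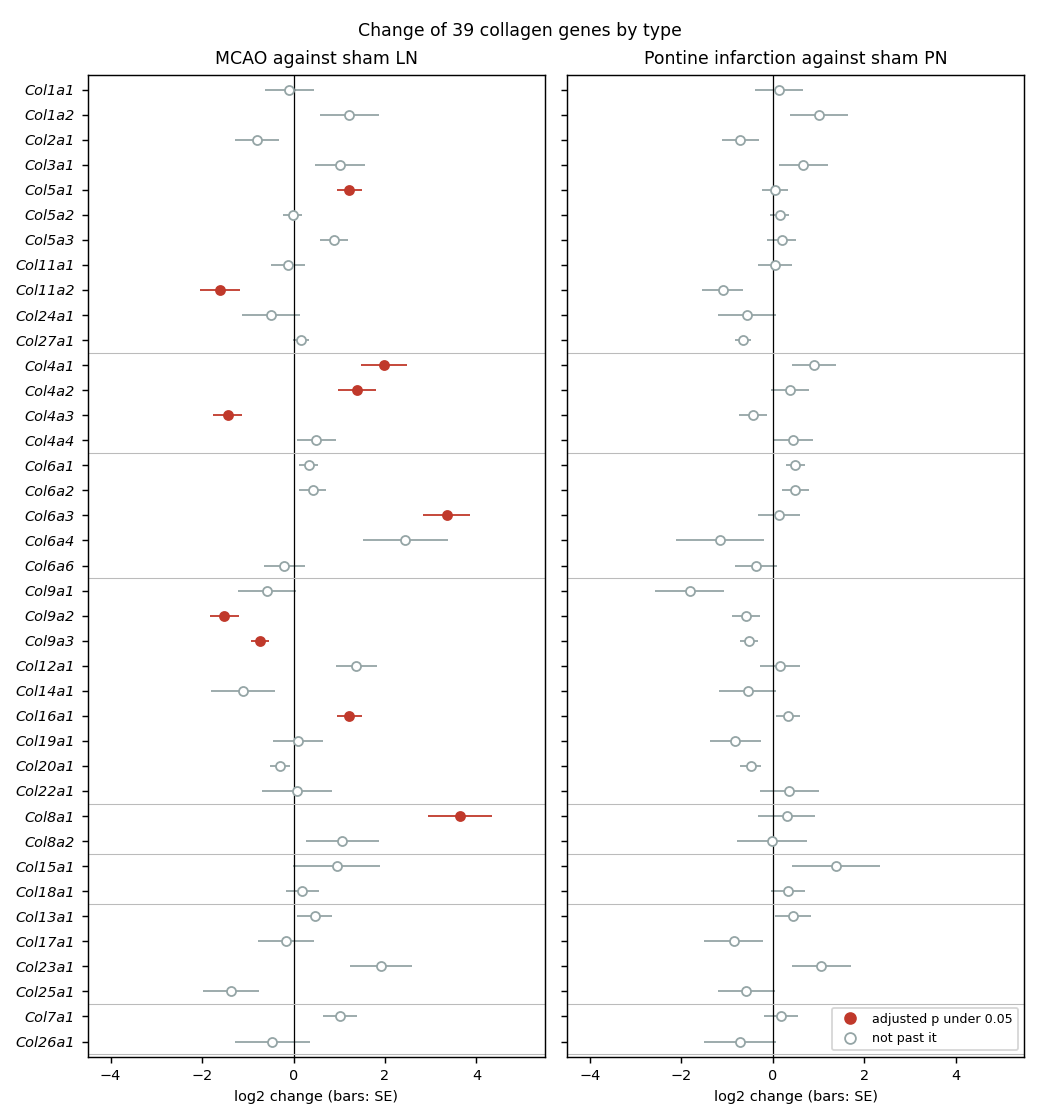
Log2 change of each of the 39 tested collagen genes (rows, grouped by type from fibrillar at the top) after MCAO against sham LN (left) and after pontine infarction against sham PN (right), with bars of 1 SE and filled points for an edgeR adjusted p under 0.05. The filled points on the left are the 6 collagens that rose and the 4 that fell, and the right panel has no filled point.

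How many collagens passed depended on single libraries. The count was 15 without MCAO replicate 2, 7 without the unnumbered library and 6 without MCAO replicate 1. Leaving out sham LN replicates 1, 2 and 3 gave 4, 6 and 5. The share of all genes that passed in each of these fits is not given, so the counts cannot be read as particular to collagens. Col6a3, Col8a1, Col4a3 and Col9a2 passed whichever of the 6 libraries was left out. The groups of libraries did not overlap for 8 of the 39 collagens that were higher after MCAO and 5 that were lower. Of all genes tested 20.4% and 18.7% did not overlap in those directions, 39.1% in all. Over both directions the collagens were thus apart less often than all genes. Set against the sham LN mean, 48.7% of the collagens lay more than 2-fold away in MCAO replicate 1, 53.8% in the unnumbered one and 25.6% in replicate 2, and the shares of all genes tested were 31.3%, 29.6% and 13.0%.

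The type IV genes Col4a1 and Col4a2 encode the chains that form the network of nearly every basement membrane, the vessel wall's included. They sit head to head on rat chromosome 16 and are read in opposite directions from the short stretch between their starts. Col4a3 and Col4a4, chains known from the basement membrane of the kidney glomerulus, lie head to head on chromosome 9 in the same way. Since the members of both pairs are compared below, the shared stretches are shown from RefSeq (build GRCr8, plus strand, 5′ to 3′), with the capitals marking a GC box, GGGCGG or its reverse CCGCCC. The first is all 76 bases between the starts of Col4a2 (to the left) and Col4a1 (to the right), chr16:84885521-84885596. The second is the 250 bases before the start of Col4a3, chr9:91323740-91323989, which reach part of the way across the 412 bases to the start of Col4a4.
Col4a2-Col4a1: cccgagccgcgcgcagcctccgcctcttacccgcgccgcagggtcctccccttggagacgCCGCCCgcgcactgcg
Col4a4-Col4a3: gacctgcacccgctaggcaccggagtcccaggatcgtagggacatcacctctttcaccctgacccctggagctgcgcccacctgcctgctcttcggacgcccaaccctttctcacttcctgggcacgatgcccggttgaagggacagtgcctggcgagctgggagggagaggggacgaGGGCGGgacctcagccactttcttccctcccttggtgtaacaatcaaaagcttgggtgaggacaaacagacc

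Both stretches hold 1 GC box and neither holds CCAAT or TATAAA, searched on both strands. Of 27457 rat promoters, 19.3% hold a GC box within 76 bases before the start and 32.4% within 250. CCAAT stands in 13.0% and 34.3% of them, and TATAAA in 4.78% and 13.1%. An opposite start within 250 bases upstream, as at Col4a1 and Col4a2, was found for 1732 of the 27457 genes (6.31%), and the gap between Col4a3 and Col4a4 is wider than that. A promoter entry was found for 35 of the 44 collagens.

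Col4a1 stood at 470.4 and 114 CPM in MCAO replicates 1 and 2 and at 454 CPM in the unnumbered library, against 99.5, 98.5 and 64.9 CPM in sham LN. MCAO replicate 1 and the unnumbered library were far above every sham, while replicate 2 lay just above the highest sham. The log2 change was 1.98 ± 0.50 (edgeR adjusted p = 0.0214). Col4a2 followed at 285, 94.4 and 298 CPM against 95.8, 93.6 and 69.7 CPM, with MCAO replicate 2 inside the range of the shams (log2 change 1.39 ± 0.41, edgeR adjusted p = 0.0388). Both calls held without MCAO replicate 2 (log2 change 2.30 and 1.66) and were lost without any other MCAO or sham LN library, where the adjusted p was 0.0598 to 0.0847 for Col4a1 and 0.0912 to 0.144 for Col4a2. They were also lost when the compared libraries were fitted alone (adjusted p = 0.0596 and 0.0812), and Col4a2 was lost by limma voom (adjusted p = 0.0642). The replicate block, a fit with the replicate number as a block, leaves out the unnumbered MCAO library. It gave log2 changes of 1.34 for Col4a1 and 0.87 for Col4a2 (adjusted p = 0.0999 and 0.167).

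In the other pair 1 gene passed. Col4a3 fell to 1.30, 2.52 and 1.74 CPM from 5.40, 5.63 and 4.09 CPM, so every MCAO library lay below every sham (log2 change -1.44 ± 0.31, edgeR adjusted p = 0.0112). Its neighbour Col4a4 stood at 1.44, 0.740 and 2.27 CPM against 1.27, 0.927 and 0.956 CPM, and the groups overlapped (log2 change 0.50 ± 0.43, edgeR adjusted p = 0.435). These are low levels, 27 to 205 counts a library for Col4a3 and 15 to 48 for Col4a4 in these 6 libraries.

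The balance within each pair was then compared library by library, a measure chosen after the values had been seen. Counts of Col4a1 relative to Col4a2 gave ratios of 1.65, 1.21 and 1.53 after MCAO against 1.04, 1.05 and 0.931 in sham LN. After pontine infarction they were 1.56, 1.34 and 1.35 against 1.03, 1.03 and 0.979 in sham PN. All 6 stroke libraries, MCAO replicate 2 included, lay above all 6 sham libraries, and the log2 ratio was higher by 0.53 after MCAO and by 0.48 after pontine infarction.

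Counts of Col4a3 relative to Col4a4 went the other way. The ratios were 0.900, 3.40 and 0.766 after MCAO against 4.27, 6.08 and 4.28 in sham LN, and 1.53, 2.03 and 1.88 after pontine infarction against 4.61, 2.87 and 3.16 in sham PN. Within each comparison no stroke library reached its shams, although the ratio of MCAO replicate 2 exceeded those of sham PN replicates 2 and 3. In each of these 4 comparisons an exact permutation test of the log2 ratio gave p = 0.1, two-sided, which is the smallest that 3 libraries against 3 allow (0.18 after Benjamini-Hochberg adjustment over the 9 pair tests computed). A ratio of counts takes no account of transcript length, so only its change between libraries can be read. In the RefSeq annotation Col4a4 overlaps a long noncoding RNA gene, and such genes also lie within Col4a1. Whether their reads entered these ratios was not tested.

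**Figure D2:**
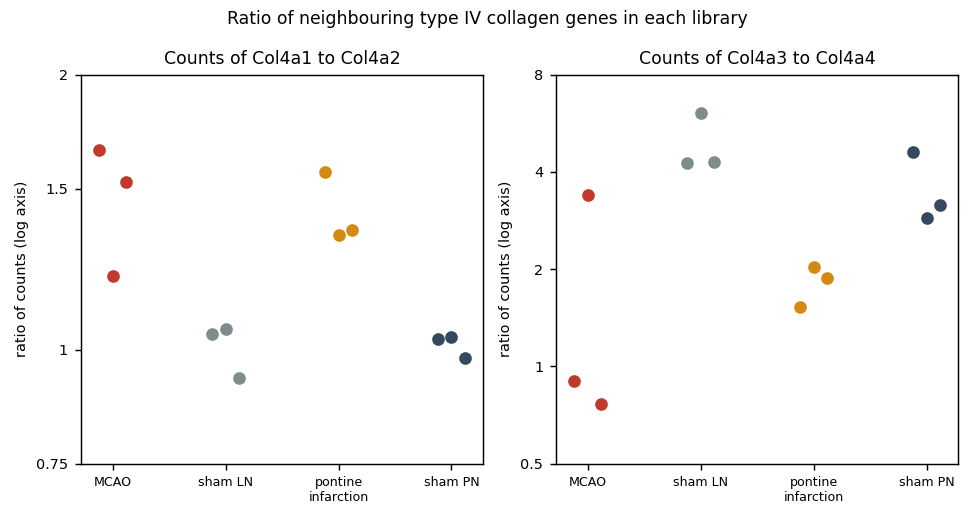
Ratio of counts of Col4a1 to Col4a2 (left) and of Col4a3 to Col4a4 (right) in each library, 1 point per library in the 4 groups, on log axes. On the left the stroke libraries lie between 1.21 and 1.65 and the shams between 0.931 and 1.05, and on the right each stroke group lies below its own shams.

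Fibrillar collagens gave 1 rise and 1 fall among 11 (18.2%), near the 18.6% of all genes tested, at a median log2 change of -0.02. Col5a1, a type V chain that regulates how fibrils start and how thick they grow, stood at 48.2, 25.3 and 35.2 CPM after MCAO against 15.3, 16.0 and 15.5 CPM. All MCAO libraries were above all shams, and the log2 change was 1.22 ± 0.28 (edgeR adjusted p = 0.0150). Its call was lost without MCAO replicate 1, sham LN replicate 1 or sham LN replicate 3 (adjusted p = 0.0799, 0.0605 and 0.0565).

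Col11a2, a type XI chain best known from cartilage, fell to 10.6, 42.9 and 48.9 CPM from 129, 100.4 and 81.2 CPM. The groups did not overlap and MCAO replicate 1 was the lowest library (log2 change -1.60 ± 0.44, edgeR adjusted p = 0.0296). The call was lost without sham LN replicate 1, 2 or 3 (adjusted p = 0.0999, 0.0676 and 0.0559) and in a fit of the compared libraries alone (adjusted p = 0.0960).

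The collagens of scar and connective tissue, types I and III, did not pass. Col1a1, the main type I chain, stood at 46.1, 42.3 and 16.4 CPM after MCAO against 33.6, 56.2 and 22.2 CPM, and the groups overlapped (log2 change -0.09 ± 0.53, 95% interval -1.24 to 1.06, edgeR adjusted p = 0.916). The sign of that value turned to 0.32 without sham LN replicate 2 and to 0.25 without the unnumbered MCAO library. Col1a1 overlaps Sgca in the RefSeq annotation, and whether the counting used strand is not given, so some of its reads could belong to that gene. Its partner Col1a2 had 11.8, 7.85 and 7.55 CPM against 1.40, 6.75 and 3.60 CPM, with no overlap between the groups (log2 change 1.22 ± 0.64, interval -0.19 to 2.63, edgeR adjusted p = 0.196). Col3a1, which forms thin fibrils with type I, had 76.6, 48.3 and 23.3 CPM against 21.6, 37.3 and 14.3 CPM (log2 change 1.02 ± 0.54, interval -0.17 to 2.20, edgeR adjusted p = 0.200). Both intervals hold 0 and also the rise measured for Col5a1.

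Type VI collagen forms beaded filaments close to cell surfaces, and 1 of its 5 tested genes passed. Col6a3 rose to 51.2, 19.9 and 88.4 CPM from 3.90, 8.08 and 3.63 CPM. Even the lowest MCAO library, replicate 2, stood above the highest sham (log2 change 3.35 ± 0.51, 10.2-fold, edgeR adjusted p = 0.00265). Col6a1 had 50.4, 34.7 and 36.8 CPM against 37.6, 27.1 and 32.02 CPM (log2 change 0.33 ± 0.21, interval -0.13 to 0.80), and Col6a2 had 31.8, 16.7 and 18.0 CPM against 15.9, 18.8 and 15.03 CPM (log2 change 0.42 ± 0.30, interval -0.23 to 1.07). Neither passed, with edgeR adjusted p = 0.281 and 0.333, and the groups overlapped for both. The sign for Col6a2 turned to -0.02 without MCAO replicate 1. Whether Col6a3 differed from its partners was not tested.

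Col8a1, a short-chain collagen that builds hexagonal networks in vessel walls and under the endothelium of the cornea, had the highest log2 change of the 10. It stood at 20.5, 2.22 and 5.32 CPM after MCAO against 0.580, 1.001 and 0.650 CPM in sham LN, and no library of one group reached the other (log2 change 3.65 ± 0.70, edgeR adjusted p = 0.00689). MCAO replicate 1, the library with the choroid plexus markers, was the highest, and without it the log2 change was 2.26 and still passed. Its partner Col8a2 had 13.2, 2.67 and 0.919 CPM against 1.71, 4.08 and 2.26 CPM, again with the peak in MCAO replicate 1, and missed the threshold (log2 change 1.07 ± 0.80, edgeR adjusted p = 0.359). The part of the choroid plexus markers in these levels was not tested.

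Of 9 FACIT genes 1 rose and 2 fell (33.3% passed, beside 18.6% of all genes tested). Col16a1, which is found at cell surfaces and in the papillary dermis among other sites, rose to 36.4 to 65.9 CPM from 18.5 to 26.5 CPM without overlap (log2 change 1.22 ± 0.27, edgeR adjusted p = 0.0115), and the call was lost without MCAO replicate 1, sham LN replicate 1 or sham LN replicate 3 (adjusted p = 0.0641, 0.0583 and 0.0550). It was also lost with the replicate block (adjusted p = 0.0568). Of the 3 chains of type IX, which decorates the fibrils of cartilage, 2 fell. Col9a2 fell to 2.50, 5.23 and 4.02 CPM from 14.4, 11.8 and 7.31 CPM (log2 change -1.51 ± 0.32, edgeR adjusted p = 0.00983). Every MCAO library was below every sham, as also for Col9a3, which fell to 15.7 to 23.3 CPM from 23.9 to 37.1 CPM (log2 change -0.73 ± 0.20, edgeR adjusted p = 0.0295). Col9a2 missed the threshold when the compared libraries were fitted alone (adjusted p = 0.0509) and with the replicate block (adjusted p = 0.0526). Col9a3 missed it in both of these fits too (adjusted p = 0.0998 and 0.0976), as well as without the unnumbered MCAO library, sham LN replicate 1 or sham LN replicate 2 (adjusted p = 0.107, 0.120 and 0.0712). Their partner Col9a1 had a log2 change of -0.58 ± 0.63 (edgeR adjusted p = 0.536).

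**Figure D3:**
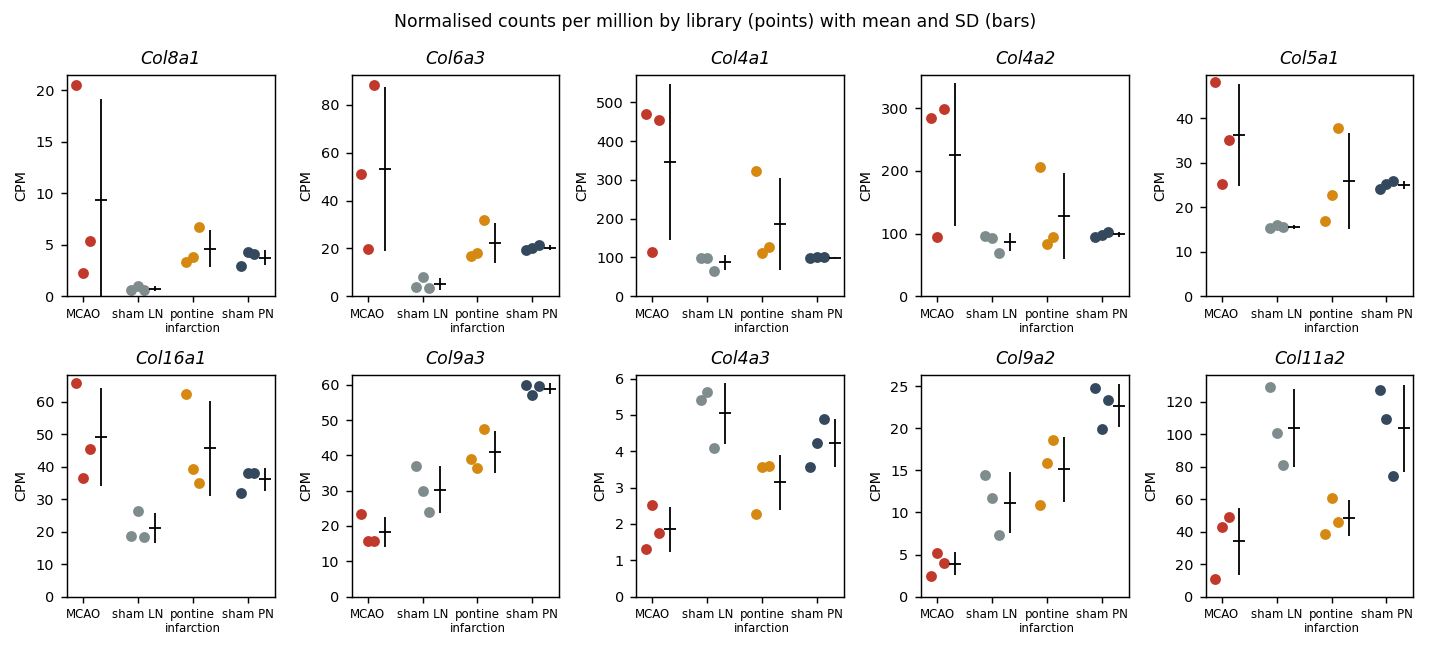
Normalised CPM of the 10 collagens that passed after MCAO, 1 panel per gene with its own linear axis from 0, 1 point per library in the 4 groups, and the mean with SD as a bar beside each group (bars end at 0). In the panels of Col4a1 and Col4a2 the low MCAO point is replicate 2, near the shams at 114 and 94.4 CPM, and pontine infarction replicate 1 stands above its group.

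The multiplexins, which sit in vessel basement membranes and can release antiangiogenic fragments such as endostatin from Col18a1, did not pass. Col18a1 had 55.3, 47.4 and 51.8 CPM after MCAO against 63.4, 23.9 and 47.6 CPM (log2 change 0.19 ± 0.36, edgeR adjusted p = 0.733), and its sign turned to -0.11 without sham LN replicate 2. Col15a1 was close to the limit of counting, with 0 to 20 counts in each of these 6 libraries. None of the 4 transmembrane collagens passed either. Col25a1, a neuronal collagen that was first found in amyloid plaques, had 1.30, 5.08 and 3.19 CPM after MCAO against 6.59, 10.3 and 7.88 CPM, without overlap (log2 change -1.37 ± 0.62, edgeR adjusted p = 0.139). Its adjusted p was 0.0482 without MCAO replicate 2. The remaining collagens had log2 changes from -1.10 (Col14a1) to 2.44 (Col6a4), and none passed.

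Summed over a class, the type IV genes reached 758, 211 and 756 CPM after MCAO against 202, 199 and 140 CPM in sham LN (mean 575 ± 315 and 180.0 ± 35.1 CPM). The fibrillar sum was 366, 249.9 and 243 CPM against 294, 299 and 222 CPM, with the groups overlapping. The other types summed to 424, 245 and 346 CPM against 252, 226 and 205 CPM, also with overlap, since MCAO replicate 2 was below sham LN replicate 1. These sums count reads, so long and abundant transcripts weigh most.

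**Figure D4:**
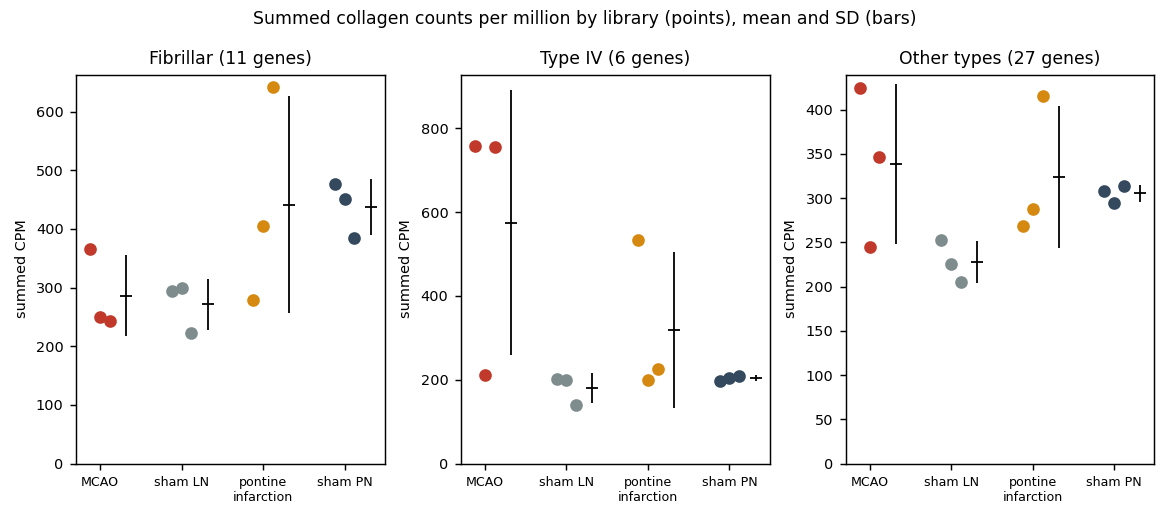
Summed CPM of the fibrillar (left), type IV (middle) and other (right) collagen genes, 1 point per library and the mean with SD as a bar beside each group. In the middle panel 2 MCAO libraries (756 and 758 CPM) and pontine infarction replicate 1 (533 CPM) stand above all others, and on the left pontine infarction replicate 3 is the highest at 642 CPM.

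Markers of cell types were read beside these values. Summed endothelial markers were 373 to 437 CPM after MCAO and 371 to 439.6 CPM in sham LN, and 0 of 11 passed in edgeR (4 at an unadjusted p under 0.05). Within this sum markers went both ways, 5 of the 11 with a log2 change above 0. Slco1a4 had 9.24, 48.5 and 1.40 CPM against 53.0 to 61.3 CPM, and Kdr 28.8, 19.1 and 106 CPM against 11.9 to 21.8 CPM. Mural cell markers summed to 270.0 to 357 CPM against 263 to 325 CPM, with Tagln higher and Rgs5 lower among 11. Over these 11 the median log2 change was -0.37, and 4 had a log2 change above 0. Tagln gave 164, 37.4 and 103 CPM of the sum against 14.5 to 21.3 CPM, so the sum does not show how the other markers moved. Fibroblast markers summed to 102 to 258 CPM against 174 to 242 CPM, and of 11 tested only Pdgfra passed, downward (34.6 to 64.9 CPM against 84.6 to 96.0 CPM). Pdgfra is not representative of the list, since 7 of the 11 had a log2 change above 0. It made up much of the sum, on average 54.5 of 183 CPM after MCAO and 88.55 of 206 CPM in sham LN. Whether its reads came from fibroblasts was not tested. Of the 12 fibroblast markers Crabp2 was listed at 0 in every library. Of 7 macrophage markers 5 rose, with a summed level of 164 to 1974 CPM against 38.2 to 43.5 CPM, and the lowest of these was again MCAO replicate 2. Of 7 choroid plexus markers Ttr and Clic6 passed upward and all 7 had a log2 change above 0, with the highest levels in MCAO replicate 1. Ttr had 1019, 0.691 and 5.51 CPM against 0.459 to 3.06 CPM, and Clic6 38.5, 0.296 and 0.967 CPM against 0.00 to 0.536 CPM. The summed level in MCAO replicate 2, 8.19 CPM, lay inside the sham LN range of 5.93 to 9.17 CPM. Of 6 astrocyte markers Gfap rose to 3433 to 3843 CPM from 366 to 507 CPM, while Aldh1l1, Slc1a3 and Gja1 fell. The part of these cells in the collagen levels was not tested.

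The genes that handle collagen were taken next. Of 69 tested genes that fold, cross-link, bind or break down collagen or share its basement membranes, 22 rose, 1 fell and 46 did not pass after MCAO (33.3% passed, beside 18.6% of all genes tested), and their median log2 change was 0.81 beside 0.00 over all genes. Of 17 genes for folding and hydroxylation, 6 rose and 0 fell (median 0.91). Serpinh1, the chaperone of procollagen known as HSP47, rose to 178, 125 and 185 CPM from 73.9, 63.8 and 60.1 CPM with no overlap (log2 change 1.30 ± 0.19, edgeR adjusted p = 0.00246). Plod2, the lysyl hydroxylase that prepares the ends of fibrillar chains for cross-linking, rose by 2.20 ± 0.49 on the log2 scale, and P4hb and Fkbp10 by 1.75 ± 0.34 and 1.32 ± 0.26 (edgeR adjusted p = 0.0118, 0.00759 and 0.00804). P4ha1, a catalytic subunit of prolyl hydroxylase, rose by 0.98 ± 0.22 (edgeR adjusted p = 0.0140). Serpinh1, P4hb and Fkbp10 passed whichever library was left out. Plod2 lost its call without sham LN replicate 1 or 2 (adjusted p = 0.0575 and 0.0503), and P4ha1 without MCAO replicate 1 or sham LN replicate 1, 2 or 3 (adjusted p = 0.0515 to 0.0804). Plod2 also lost it in a fit of the compared libraries alone (adjusted p = 0.0669).

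Of 12 genes for trimming and cross-linking 3 rose (25.0%, beside 18.6% of all genes tested). Lox, the lysyl oxidase that cross-links collagen and elastin, stood at 131, 8.69 and 46.5 CPM against 3.24, 1.96 and 2.41 CPM, every MCAO library above every sham (log2 change 4.60 ± 0.81, edgeR adjusted p = 0.00481). Its relative Loxl4 rose by 4.34 ± 0.98 and Tll1, a protease that trims procollagen, by 2.40 ± 0.47 (edgeR adjusted p = 0.0134 and 0.00731). Loxl4 in MCAO replicate 2 was at 1.58 CPM, inside the sham range of 1.13 to 2.07 CPM, and its call was lost without sham LN replicate 1 or 3 (adjusted p = 0.0644 and 0.0529) and by limma voom (adjusted p = 0.133). The Loxl4 call was also lost on the compared libraries alone and with the replicate block (adjusted p = 0.0594 and 0.144). Of 10 receptors 2 rose, Itga2 and Itgb1, which form a collagen-binding integrin. Itgb1 rose to 259.8, 123 and 232 CPM from 96.4, 96.4 and 97.8 CPM (log2 change 1.08 ± 0.23, edgeR adjusted p = 0.00993, and 0.0580 without MCAO replicate 1), and Itga2 to 3.80, 0.494 and 5.85 CPM from 0.00 to 0.191 CPM (edgeR adjusted p = 0.00701). The Itgb1 call was also lost on the compared libraries alone (adjusted p = 0.0540). With the replicate block both missed the threshold (adjusted p = 0.0514 for Itgb1 and 0.0511 for Itga2). The fibrillar collagen receptor Ddr2 had 10.4 to 13.8 CPM against 9.91 to 14.1 CPM (log2 change 0.09 ± 0.23, edgeR adjusted p = 0.811).

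Of 10 breakdown genes 6 rose. Mmp14, a membrane-bound collagenase, stood at 164, 25.4 and 111 CPM against 7.61, 8.78 and 7.04 CPM (log2 change 3.68 ± 0.54, edgeR adjusted p = 0.00246). Mmp9, a gelatinase that cleaves type IV collagen, stood at 216, 31.8 and 267 CPM against 3.48, 4.04 and 2.14 CPM (log2 change 5.73 ± 0.93, edgeR adjusted p = 0.00348). Both were above the shams in all MCAO libraries and passed whichever library was left out. Mmp8 and Mmp13, collagenases of neutrophils and of connective tissue, also passed (edgeR adjusted p = 0.0225 and 0.0430). Mmp8 had 32.9, 0.543 and 3.53 CPM against at most 0.105 CPM in the shams, and Mmp13 had 1.44, 0.148 and 2.85 CPM against at most 0.0383 CPM. Without single libraries these calls were mostly lost. For Mmp8 this was so without MCAO replicate 1 or any sham LN library (adjusted p = 0.0648 to 0.0819), and for Mmp13 without MCAO replicate 1, the unnumbered MCAO library or any sham LN library (adjusted p = 0.0860 to 0.139). Limma voom called neither Mmp8 nor Mmp13 (adjusted p = 0.140 and 0.141), and Mmp13 missed the threshold with the replicate block (adjusted p = 0.128).

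Among 15 other basement membrane genes 5 rose and 1 fell (40.0% passed, beside 18.6% of all genes tested). The laminin genes Lama5 and Lamb3 rose by 1.53 ± 0.44 and 1.52 ± 0.36 on the log2 scale (edgeR adjusted p = 0.0334 and 0.0167). MCAO replicate 2 lay inside the sham range for Lama5 (14.95 CPM against 13.8 to 16.7), and just above it for Lamb3 (3.80 CPM against 2.10 to 3.03). In fits with 1 library left out, Lama5 passed only when this was MCAO replicate 2, and Lamb3 only when it was MCAO replicate 2 or sham LN replicate 2, and otherwise the adjusted p of these genes was 0.0539 to 0.181. Both were lost on the compared libraries alone (adjusted p = 0.105 and 0.0656) and with the replicate block (adjusted p = 0.132 and 0.103). Lama5 was also lost by limma voom (adjusted p = 0.0840). Agrn, a heparan sulfate proteoglycan, fell by 1.08 ± 0.31 on the log2 scale to 65.1 to 188 CPM from 226 to 239 CPM (edgeR adjusted p = 0.0352). None of the 5 fibril-binding small proteoglycans passed in edgeR (1 at an unadjusted p under 0.05). Sparc, a collagen-binding matrix protein, had 328 to 618 CPM against 517 to 722 CPM (log2 change -0.46 ± 0.22, edgeR adjusted p = 0.159), and without MCAO replicate 1 the log2 change was -0.83 with an adjusted p of 0.0243.

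**Figure D5:**
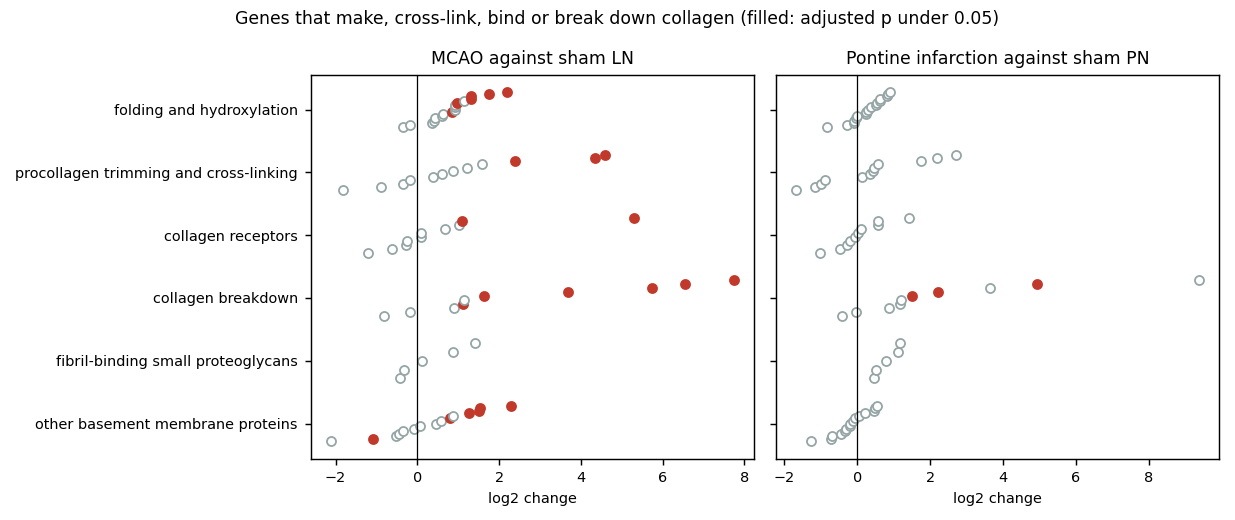
Log2 change of genes that fold, trim, cross-link, bind or break down collagen or belong to basement membranes, 1 point per gene in 6 rows, after MCAO against sham LN (left) and after pontine infarction against sham PN (right), filled for an edgeR adjusted p under 0.05. On the left 23 points are filled and on the right 3, all in the breakdown row, and the rightmost points of that row are genes with few or no counts in the shams, whose fitted position is not a measured fold.

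After pontine infarction 0 of the 39 collagens passed against sham PN in edgeR, where 4.08% of all genes tested did (3.21% higher, 0.87% lower). At an unadjusted p under 0.05 there were 5 collagens, limma voom called 0, and DESeq2 called 1, Col27a1, as lower. The median log2 change was 0.13 over the collagens and -0.08 over all genes. The groups of libraries did not overlap for 2 of the 39 collagens that were higher, Col4a1 and Col6a1, and for 7 that were lower. Of all genes 13.3% and 18.7% were apart in those directions (32% in either direction), so the collagens were apart less often. Of 7 macrophage markers 4 rose, with a summed level of 229 to 1117 CPM against 50.0 to 56.1 CPM, and their part in the collagen levels was not tested. The shares of collagens more than 2-fold from the sham PN mean were 30.8%, 7.69% and 30.8% in replicates 1 to 3, and 17.1%, 10.7% and 23.4% for all genes.

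Col4a1 had 322, 111 and 127 CPM after pontine infarction against 97.4, 101 and 101 CPM in sham PN. All stroke libraries were above all shams, replicate 1 by far and the others slightly (log2 change 0.90 ± 0.49, interval -0.17 to 1.98, edgeR adjusted p = 0.314). Col4a2 had 206, 82.8 and 93.8 CPM against 94.7, 98.1 and 103 CPM, so replicate 1 alone was above the shams and the others were below them (log2 change 0.37 ± 0.41, interval -0.52 to 1.26, edgeR adjusted p = 0.627). Without replicate 1 the log2 changes were 0.25 and -0.16. Col4a3 had 2.28, 3.56 and 3.59 CPM against 3.57, 4.23 and 4.89 CPM, with overlap (log2 change -0.43 ± 0.30, edgeR adjusted p = 0.441).

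Another library led the fibrillar genes. Col1a1 had 43.0, 100.4 and 213 CPM against 101, 118 and 106 CPM, Col1a2 had 8.79, 19.6 and 40.7 CPM against 20.2, 7.44 and 6.79 CPM, and Col3a1 had 38.1, 80.8 and 174 CPM against 70.3, 64.9 and 49.6 CPM. For all of them pontine infarction replicate 3 was the highest and replicate 1 the lowest stroke library. The log2 changes were 0.13 ± 0.52, 1.01 ± 0.63 and 0.67 ± 0.53, and none passed (edgeR adjusted p = 0.909, 0.375 and 0.496). Without replicate 3 they were -0.59, 0.31 and -0.05. The summed fibroblast markers had the same order, 237, 417 and 721 CPM in replicates 1 to 3 against 489 to 544 CPM in sham PN. Igf2 alone gave 62.8, 212 and 359 CPM of this sum. Dcn (35.4, 13.7 and 26.5 CPM) and Pdgfra (103, 74.3 and 80.7 CPM) were instead highest in replicate 1, while the other detected markers followed the order of the sum. The part of these markers in the collagen values was not tested. Col5a1 had 17.0, 22.8 and 37.9 CPM against 24.1, 25.2 and 25.8 CPM (log2 change 0.05 ± 0.28, edgeR adjusted p = 0.937), and its sign turned to -0.33 without replicate 3.

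Among the other types, Col6a1 had 37.4, 37.3 and 56.8 CPM after pontine infarction against 28.6, 29.6 and 35.4 CPM, without overlap (log2 change 0.49 ± 0.21, edgeR adjusted p = 0.207). Col6a2 had 32.7, 38.7 and 70.9 CPM against 34.6, 31.97 and 34.9 CPM, with overlap (log2 change 0.49 ± 0.30, edgeR adjusted p = 0.362). Col6a3 had 16.9, 18.1 and 31.8 CPM against 19.2, 20.3 and 21.6 CPM (log2 change 0.13 ± 0.46, interval -0.88 to 1.14), and Col8a1 had 3.35, 3.86 and 6.69 CPM against 2.92, 4.27 and 4.10 CPM (log2 change 0.30 ± 0.62, interval -1.06 to 1.66). Both had a log2 change above 3 after MCAO, and here their stroke and sham libraries overlapped. Col18a1 had 26.4, 33.7 and 68.7 CPM against 34.9, 29.3 and 37.5 CPM (log2 change 0.34 ± 0.37, -0.17 without replicate 3), Col15a1 had 2 to 32 counts in each of these 6 libraries, and Col25a1 had a log2 change of -0.58 ± 0.62.

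None of the 7 collagens that lay lower in every stroke library than in every sham passed, and 18.7% of all genes tested were apart in that direction. Col11a2 had 38.5, 60.5 and 45.7 CPM against 127, 109 and 74.0 CPM (log2 change -1.10 ± 0.44, edgeR adjusted p = 0.173). Col9a2 had 10.9, 15.9 and 18.6 CPM against 24.8, 19.95 and 23.4 CPM (log2 change -0.59 ± 0.30), Col9a3 had 36.3 to 47.6 CPM against 57.1 to 59.9 CPM (-0.52 ± 0.20), and Col2a1 had 4.70, 4.56 and 2.13 CPM against 7.48, 5.40 and 5.82 CPM (-0.71 ± 0.41), with edgeR adjusted p of 0.290, 0.156 and 0.334. Col9a1 rested on 1 to 5 counts a library against 5 to 8, and Col20a1 had 3.98 to 6.23 CPM against 6.62 to 7.98 CPM. Col27a1, a fibrillar collagen of cartilage and other tissues, came nearest to the threshold at 17.4, 14.0 and 12.3 CPM against 24.8, 18.9 and 24.8 CPM. Its log2 change was -0.65 ± 0.17 (edgeR adjusted p = 0.0546), and it passed when replicate 1 was left out (log2 change -0.80, adjusted p = 0.0455) and by DESeq2 (-0.62, adjusted p = 0.00767).

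Of the 69 processing genes 3 rose after pontine infarction, all of them in the breakdown list of 10, at a median log2 change of 0.30 over the 69 and 1.35 over the 10. The 3 make up 4.35% of the 69, near the 4.08% of all genes tested that passed in this comparison. Mmp9 stood at 33.2, 5.29 and 6.54 CPM against 0.516, 0.756 and 0.180 CPM (log2 change 4.94 ± 1.0, edgeR adjusted p = 0.0222), Mmp14 at 114, 53.1 and 68.1 CPM against 16.6, 18.1 and 15.7 CPM (2.22 ± 0.51, edgeR adjusted p = 0.0363), and Ctsb, the lysosomal protease cathepsin B, at 1490.0, 1156 and 2965 CPM against 621, 634 and 719 CPM (1.51 ± 0.37, edgeR adjusted p = 0.0463). All stroke libraries were above all shams. The calls did not hold throughout. Mmp9 lost its call without any of the sham PN libraries (adjusted p = 0.0788 to 0.127), and Mmp14 and Ctsb without any of these or pontine infarction replicate 1 or 3 (adjusted p = 0.0633 to 0.171), and limma voom called none of the 3 (adjusted p = 0.0680 to 0.247). Ctsb also missed the threshold with the replicate block (adjusted p = 0.0603). Mmp8 had 221 counts over the stroke libraries and 0 over the shams, which is at least 62.8-fold higher when the sham group is set to 3 counts in all, and its test missed the threshold (edgeR adjusted p = 0.0823).

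Of 17 folding genes and 12 trimming and cross-linking genes 0 passed in edgeR (7 and 6 at an unadjusted p under 0.05). Serpinh1 had 207, 129 and 171 CPM against 109, 104 and 116 CPM (log2 change 0.62 ± 0.19, edgeR adjusted p = 0.0893), P4ha1 had 93.5, 48.3 and 55.6 CPM against 40.6, 35.8 and 36.4 CPM (0.81 ± 0.22, edgeR adjusted p = 0.0667), and Lox had 29.2, 8.70 and 17.5 CPM against 4.99, 3.78 and 3.38 CPM (2.19 ± 0.74, edgeR adjusted p = 0.117). All 3 were higher in every stroke library than in every sham without passing, and DESeq2 called all of them (adjusted p = 0.0250, 0.00999 and 0.0127). Serpinh1 and P4ha1 also passed in edgeR without pontine infarction replicate 2 (adjusted p = 0.0342 and 0.0273). P4ha1 passed without a filter and with the replicate block (adjusted p = 0.0346 and 0.0485), and Lox in a fit of the compared libraries alone (adjusted p = 0.0313). Itgb1, Ddr2 and Sparc had log2 changes of 0.58 ± 0.23, -0.06 ± 0.23 and -0.11 ± 0.22, and none passed, although Itgb1 did in the fit of the compared libraries alone (adjusted p = 0.0498).

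The difference between the responses was tested itself, and 0 of the 39 collagens passed in edgeR, as did 0% of all genes. At an unadjusted p under 0.05 there were 7 collagens, limma voom called 0, and DESeq2 called 2. Col6a3 had a response larger after MCAO by 3.23 ± 0.67 on the log2 scale (edgeR adjusted p = 0.213) and Col8a1 by 3.35 ± 0.92 (edgeR adjusted p = 0.269). These were also the 2 that DESeq2 called (adjusted p = 0.00172 and 0.0312) and that edgeR called without MCAO replicate 2 (adjusted p = 0.00641 and 0.0176). For Col4a1 and Col4a2 the difference was 1.08 ± 0.69 (interval -0.43 to 2.59) and 1.01 ± 0.58 (interval -0.25 to 2.27). Col27a1 was higher than its shams in every MCAO library and lower in every pontine library, a difference of 0.81 ± 0.24 (edgeR adjusted p = 0.292). The strokes are therefore not shown to differ in any collagen by edgeR with all 12 libraries.

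The sham groups differed from each other in 8 of the 39 collagens, 1 higher and 7 lower in sham LN (edgeR quasi-likelihood test). This is 20.5% of the collagens, near the 21.3% of all genes tested that differed (10% higher and 11.3% lower). The median log2 difference, sham LN minus sham PN, was -0.39 over the collagens and -0.11 over all genes. Sham LN lay below sham PN without overlap for 17 collagens and above it for 4, against 29.2% and 21.7% of all genes, 50.9% in all. Col2a1, the main collagen of cartilage, had 0.659, 0.778 and 0.421 CPM in sham LN against 7.48, 5.40 and 5.82 CPM in sham PN (log2 difference -3.32 ± 0.45, edgeR adjusted p = 0.000425). The highest sham LN library was far below the lowest sham PN library, and Col2a1 stood at 0.144 to 0.494 CPM after MCAO and at 2.13 to 4.70 CPM after pontine infarction.

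Col8a1 and Col6a3, which rose after MCAO, were lower in sham LN than in sham PN by log2 differences of -2.34 ± 0.68 and -1.97 ± 0.48 (edgeR adjusted p = 0.0293 and 0.0131). For Col6a3 this meant 3.63 to 8.08 CPM against 19.2 to 21.6 CPM, and the MCAO libraries, at 19.9 to 88.4 CPM, began where sham PN lay. Col5a2, Col6a2, Col9a2 and Col9a3 were lower, with log2 differences of -1.0 ± 0.21, -1.03 ± 0.30, -1.02 ± 0.31 and -0.96 ± 0.20 (edgeR adjusted p = 0.00553, 0.0305, 0.0341 and 0.00552). Col20a1 was higher in sham LN, at 15.9, 17.3 and 12.5 CPM against 6.62, 7.90 and 7.98 CPM (log2 difference 1.02 ± 0.23, edgeR adjusted p = 0.00770). It overlaps Chrna4, a subunit of the neuronal acetylcholine receptor, in the RefSeq annotation, so its reads may not all be its own.

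Fewer collagens differed between the shams when a library was left out, 5, 5 and 4 without sham LN replicates 1 to 3 and 6, 5 and 5 without sham PN replicates 1 to 3. The share of all genes that differed in these fits is not given. Col2a1, Col5a2, Col9a3 and Col20a1 passed each time. Col6a2 passed in none of these fits (adjusted p = 0.0599 to 0.109), Col8a1 passed only without sham PN replicate 1 and Col9a2 only without sham LN replicate 1 (otherwise adjusted p = 0.0597 to 0.104 and 0.0608 to 0.130), and Col6a3 failed without sham LN replicate 1 or 3 (adjusted p = 0.0595 and 0.0625). Summed fibroblast markers were 174 to 242 CPM in sham LN and 489 to 544 CPM in sham PN, and 3 of 11 tested were lower while 0 were higher. Of 6 astrocyte markers 3 were lower and 1 higher in sham LN, and of 7 neuron markers 2 were higher and 1 lower, with summed neuron levels of 4642 to 6421 CPM against 3415 to 3727 CPM. The part of these cell types in the collagen difference was not tested. The region taken is not in the labels, so region and any other difference between the sham groups cannot be told apart.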

How the data were processed

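Gene counts of 12 rat brain libraries were used as the authors deposited them, unscaled whole numbers. HISAT2 and the genome Rnor_6.0 are named per the submitters' processing notes, with the counting program, annotation and strand setting not given in the sources used here. Tests were run in edgeR 4.0.16, DESeq2 1.42.0 and limma 3.58.1 under R 4.3.3. filterByExpr (minimum count 10, minimum total 15) kept 17008 of 37209 symbols (45.7%), and the others held 0.0453% of counts. Counts were scaled by TMM, and edgeR's quasi-likelihood model took in all 12 libraries, 4 groups of 3 (common biological coefficient of variation 0.302), two-sided, with Benjamini-Hochberg adjustment over all genes and a threshold of 0.05. For the SE, the size of the log2 change was divided by the root of the F statistic, and 95% intervals use the t distribution with the degrees of freedom of the fit. Per-library 2-fold shares use log2 CPM with a prior count of 2. The procedure was tested on simulated counts.

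The rule for values per library named the 8 largest passing collagens per stroke comparison and the 5 largest between shams. It also named Col1a1, Col1a2, Col3a1, Col4a1, Col4a2, Col5a1, Col6a1, Col6a2, Col15a1, Col18a1 and Col25a1. For pathway lists it named the 3 largest and a fixed set. Some of these genes are given only as a range over libraries, a range of counts or a log2 change. Col2a1, Col4a3, Col6a3, Col8a1, Col9a1, Col9a2, Col9a3, Col11a2, Col20a1, Col27a1 and Mmp8 after pontine infarction, and Col4a4, Col8a2 and Col9a1 after MCAO, were added after their values were seen. One gene that the rule names is not reported here. Members and lists were chosen with earlier results of these data known. Of the listed pathway and marker genes, older symbols in the table were matched through RefSeq names. RefSeq coordinates (GRCr8) were used for sequences and neighbours only. Alternatives were DESeq2 size factors, other count filters, DESeq2, limma voom, a block for the replicate number, a fit of only the compared groups and leaving out each library. Counting bounds cover counting error only.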

Additional observations from a re-analysis of the deposited data

How the results depend on the processing

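With 3 libraries a group, calls near the threshold turned on single libraries. Of 10 collagens past the threshold after MCAO, 10 passed with DESeq2 size factors, without a filter or with 10 counts in 3 libraries, 14 passed by DESeq2, 9 by limma voom, 6 on the compared libraries alone and 5 with the replicate block, and leaving out single libraries gave 4 to 15. After pontine infarction 0 passed, 1 by DESeq2, and 0 to 1 with a library left out. For the difference of the responses 0 passed, 2 by DESeq2, and 0 to 2 with a library left out. Between the shams 8 passed, 12 by DESeq2, 18 on the compared libraries alone, 7 with the replicate block, and 4 to 6 with a library left out. The shares of all genes that passed in these fits are not given, so the counts cannot be read as particular to collagens.

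Values that changed sign after MCAO, none of them past the threshold, were Col1a1 (0.37 with the replicate block, 0.25 without the unnumbered MCAO library, 0.32 without sham LN replicate 2), Col18a1 (-0.11 without sham LN replicate 2), Col6a2 (-0.02 without MCAO replicate 1) and Ddr2 (-0.01 without a filter, -0.06 without MCAO replicate 1, -0.03 without sham LN replicate 1). After pontine infarction they were Col18a1 (-0.17), Col1a1 (-0.59), Col3a1 (-0.05) and Col5a1 (-0.33) without replicate 3, Col4a2 (-0.16) without replicate 1, Col1a1 (-0.15) and Col5a1 (-0.02) by limma voom, and Ddr2 (0.04 without a filter, on the compared libraries alone and without sham PN replicate 1, 0.12 without replicate 1). With 1 library left out, these values ranged after MCAO from -0.43 to 0.32 (Col1a1), -0.11 to 0.52 (Col18a1), -0.02 to 0.55 (Col6a2) and -0.06 to 0.22 (Ddr2), and after pontine infarction from -0.17 to 0.59 (Col18a1), -0.59 to 0.53 (Col1a1), -0.05 to 1.05 (Col3a1), -0.16 to 0.61 (Col4a2), -0.33 to 0.27 (Col5a1) and -0.19 to 0.12 (Ddr2). The causes were not tested.

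The labels do not say whether the replicate numbers pair the samples. Same-numbered libraries correlated in their deviations from the group means by 0.09 for MCAO with sham LN, 0.048 to 0.154 for pontine infarction with sham PN and 0.043 to 0.153 for the shams. In these comparisons every numbered library that had a same-numbered partner correlated best with it, a hint from the data and not from the design. Same-numbered libraries of MCAO and pontine infarction correlated by 0.227 and 0.427. Those of MCAO and sham PN correlated by 0.035 and 0.023, and those of sham LN and pontine infarction by -0.102 to -0.005. MCAO replicates 1 and 2 deviate as mirror images, since no other MCAO library is numbered. The block fit left out the unnumbered MCAO library. Low depth limits Col15a1, Col4a4 and the 5 untested collagens. In the single-gene values 889 kept direction and side of the threshold, 123 fell short of it, 15 came to pass it and 19 changed sign.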

Other observations

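The chains of type I collagen were out of step between libraries as well. Counts of Col1a1 relative to Col1a2 gave ratios of 3.91, 5.40 and 2.17 after MCAO against 24.0, 8.32 and 6.16 in sham LN, without overlap (difference of the log2 ratio -1.58, two-sided exact permutation test p = 0.1, the smallest that 3 against 3 allows, 0.18 adjusted over the 9 pair tests). After pontine infarction they were 4.89, 5.12 and 5.23 against 5.02, 15.9 and 15.6 in sham PN, with overlap (exact permutation test p = 0.3). The highest ratio, in sham LN replicate 1, rested on 53 counts of Col1a2. This pair was chosen after its values were seen, and the reads that Col1a1 may share with Sgca were not separated.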
